A study of Oryctolagus cuniculus with 16 samples.

Results

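The vacuolar proton pump (V-ATPase) is an enzyme of many subunits that moves protons across a membrane at the cost of ATP. Members were chosen by name: 10 genes were listed (*ATP6V0D1*, *ATP6V0D2*, *ATP6V0A1*, *TCIRG1*, *ATP6V1A*, *ATP6V1B2*, *ATP6V1C1*, *ATP6V1H*, *ATP6AP1* and *ATP6AP2*), and a row of the gene table was a member when its symbol equalled one of these. Of these 10, 9 were analysed, out of 20255 genes in the table, and *TCIRG1* was not analysed here.

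RNA from the femoral heads of wild-type rabbits was sequenced to compare rabbits given a surgical model of Perthes disease, an ischaemic death of bone in the growing hip, with control rabbits. In the Perthes group (n = 5), the femoral neck had been tied with suture and the ligamentum teres, which carries a vessel to the femoral head, had been cut when the animals were 8 weeks old. The control group (n = 3) had no such operation named, and the age of the controls and the time from surgery to collection were not given in the sources used. Ischaemia was made by surgery, so the model holds no step that comes before the loss of blood supply, and each library is 1 rabbit. The title of the third control gives another replicate number than its code, and that library was taken as control 3.

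The pump has a V1 sector in the cytosol, which breaks down ATP, and a V0 sector in the membrane, through which the protons pass. It acidifies lysosomes and endosomes in all cells, and osteoclasts also carry it in the ruffled border, where it acidifies the space against bone and dissolves the mineral. Several subunits have isoforms encoded by separate genes, and osteoclasts use particular isoforms of the a and d subunits.

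Total counts ran from 26757087 in control 2 to 29461482 in Perthes 5, and 1 count stood for 0.0333 to 0.0374 CPM. CPM is the usual scaled count, a gene's share of its library's counts after scaling between libraries, and it is not divided by transcript length, so a level is compared between rabbits, and the gene named as having the highest CPM of a list need not be the one with the most transcripts. Genes of cartilage and bone were read in all 8 libraries, and *COL2A1* (type II collagen) and *COL1A1* (type I collagen) had the highest CPM of the chondrocyte list and of the osteoblast and osteocyte list in each.

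All 9 members had enough counts to be tested with edgeR, and 5 of 9 were called higher in Perthes femoral heads at an adjusted p under 0.05, against 6.21% of the 15305 genes tested. The members had been chosen with earlier results of these data known, so the shares of all genes are set beside them as description. By edgeR, 0 of 9 were called lower, against 8.86% of all genes, and 0 of 9 were lower at an unadjusted p under 0.05 or by DESeq2. At an unadjusted p under 0.05, 7 of 9 were higher, against 15.3% of all genes in that direction and 16.6% in the other. DESeq2 called 7 of 9 higher, against 9.74% of its 17451 genes, where 11% were called lower. The median log2 fold change (Perthes over control) was 1.14 over the 9 members and 0.02 over all genes tested. In 5 of 9 members every Perthes rabbit stood above every control rabbit, which held for 11.2% of all genes, and every Perthes rabbit stood below every control for 13.9% of all genes and for 0 members. In bulk tissue, more cells of a type and more RNA per cell cannot be told apart. Scaling by library totals alone moved the median of all genes to -0.06 and the calls over all genes from 951 higher and 1356 lower to 678 higher and 1705 lower, and 2 of 9 members were then called higher. Calls depended on single rabbits: members called higher numbered 0 without Perthes 3, control 1 or control 2, 1 without Perthes 5 or control 3, 2 without Perthes 1, 5 without Perthes 2 and 7 without Perthes 4. The share of all genes called higher moved as well, to 2.53% without Perthes 3, 0.467% without control 1, 2.30% without Perthes 5, 4.45% without control 3, 5.27% without Perthes 1, 6.18% without Perthes 2 and 8.36% without Perthes 4. Without control 2, 0 of 15594 genes were called in either direction by edgeR, and 7 of 9 members were at an unadjusted p under 0.05. The share of all genes at that unadjusted p in this fit is not given here, so the 7 of 9 has no background to be set against.

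The d subunit joins the rotor of V1 to the ring of V0, and *ATP6V0D1* (gene 100350157) encodes the isoform found in most tissues. Its level was 93.5, 105, 110.3, 74.6 and 128 CPM in Perthes rabbits 1 to 5 and 116, 91.1 and 82.0 CPM in control rabbits 1 to 3. The groups overlapped, with the lowest value in Perthes 4 and the highest in Perthes 5. Its log2 fold change was 0.09 (SE 0.21, adjusted p = 0.803), and its sign turned without Perthes 5 (-0.00539) or control 3 (-0.0187).

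*ATP6V0D2* (gene 100350237) encodes the other d isoform, which is made by osteoclasts and some other cells and takes part in the fusion of osteoclast precursors. Perthes rabbits 1 to 5 had 562, 103, 249, 63.0 and 140.0 CPM, and control rabbits 1 to 3 had 15.0, 35.8 and 56.2 CPM. All 5 Perthes rabbits stood above all 3 controls, with Perthes 1 far above the rest and Perthes 4 close to control 3. Within groups the highest rabbit had 8.91 times the level of the lowest in Perthes and 3.74 times in controls. In Perthes it averaged 223 CPM with an SD of 201 (n = 5) and in controls 35.7 CPM with an SD of 20.6 (n = 3). The log2 fold change was 2.65 (6.26-fold, SE 0.78), the furthest from 0 of the 9 members, and with an adjusted p of 0.0501 from edgeR it did not pass the threshold. Over the 14 alternatives the log2 fold change ran from 1.96, without Perthes 1, to 3.14, without control 3. The adjusted p from edgeR was 0.0408 without Perthes 2 and 0.0286 without Perthes 4. With DESeq2 size factors in edgeR it was 0.0495, and with at least 10 counts in every library 0.0471. Over the 14 alternatives it ran from 0.000738, by DESeq2, to 0.17, and it was under 0.05 in 5 of them.

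The isoforms were also compared inside each rabbit, as the log2 ratio of the *ATP6V0D2* count to the *ATP6V0D1* count, which does not depend on scaling between libraries. The ratio was 2.59, -0.04, 1.18, -0.24 and 0.12 in Perthes rabbits 1 to 5 and -2.95, -1.35 and -0.54 in control rabbits 1 to 3. Every Perthes rabbit stood above every control, with Perthes 4 and control 3 the nearest pair. The mean was 0.72 ± 1.18 (SD, n = 5) in Perthes and -1.61 ± 1.23 (SD, n = 3) in controls. The difference was 2.34 (5.05-fold), with an exact two-sided permutation p of 0.0357, the smallest that the 56 divisions of 8 rabbits allow. By group medians the difference was 1.47, with an exact permutation p of 0.107.

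The a subunit holds the proton channel of V0 and sets the membrane to which the pump goes, and *ATP6V0A1* (gene 100125982) encodes its a1 isoform. It was read at 163, 109, 134, 70.7 and 141 CPM in Perthes rabbits 1 to 5 and at 129.8, 90.1 and 86.2 CPM in control rabbits 1 to 3. The groups overlapped, and Perthes 4 was below all 3 controls. For this gene the log2 fold change was 0.27 (SE 0.28, adjusted p = 0.524), and between 0.16 and 0.49 over the 14 alternatives.

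**Figure D1:**
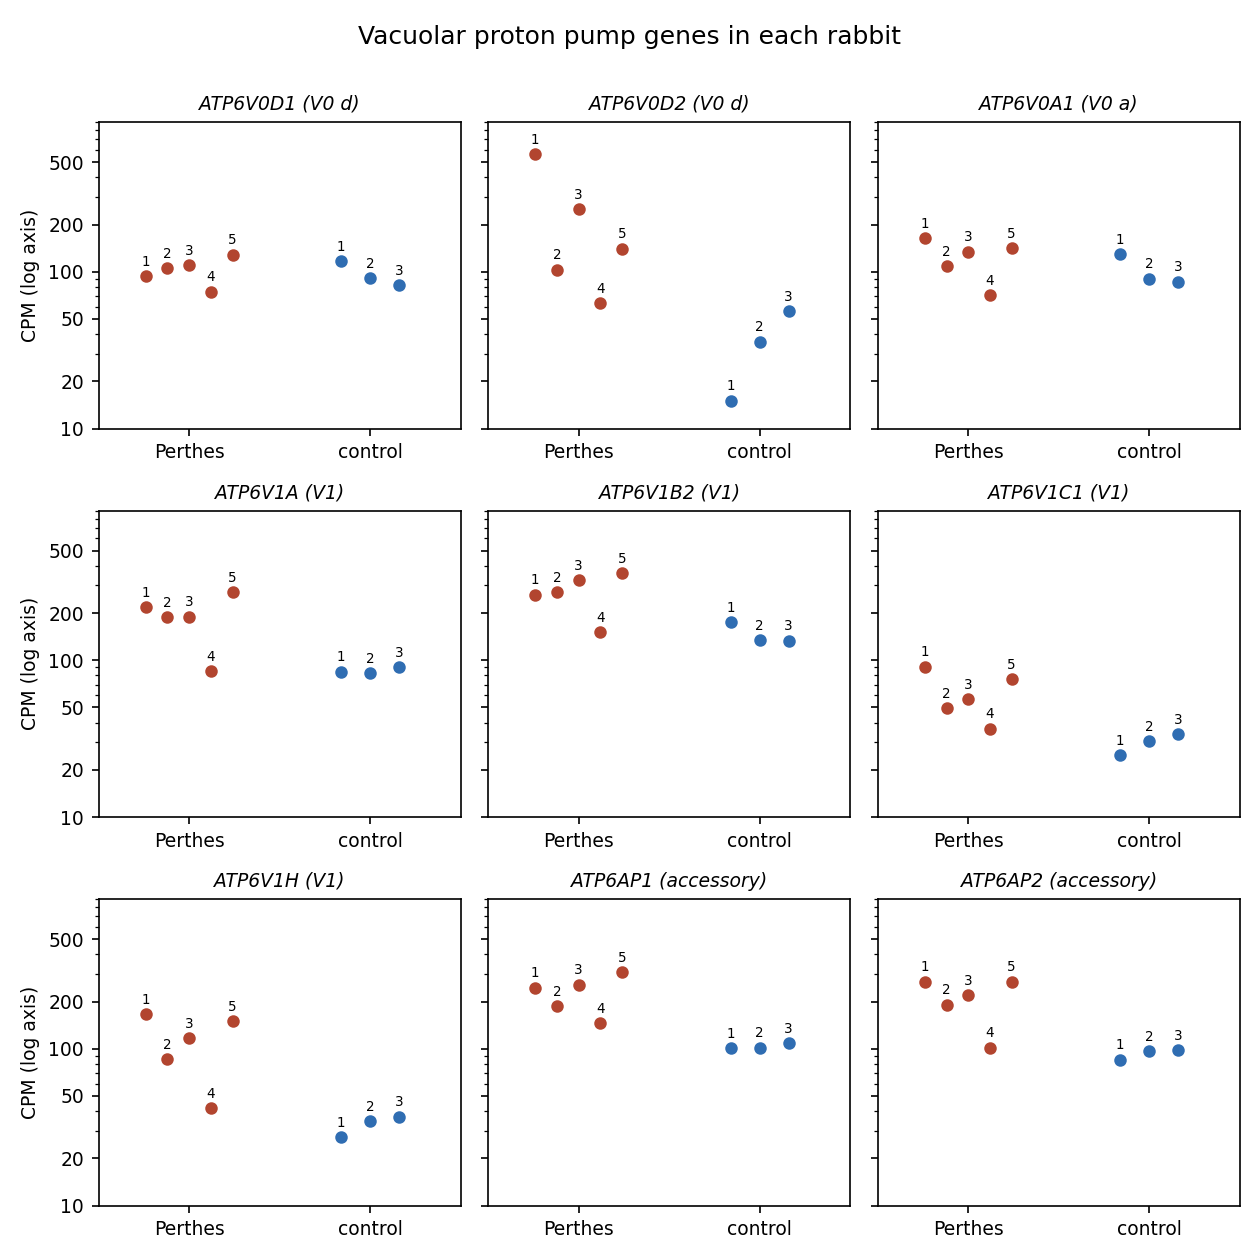
Level of each of the 9 pump members (CPM, log axis) in each rabbit of the Perthes (n = 5) and control (n = 3) groups, 1 panel a gene. The groups are apart for ATP6V0D2, ATP6V1C1, ATP6V1H, ATP6AP1 and ATP6AP2, and Perthes 4 is the lowest Perthes rabbit in every panel.

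The A subunit, encoded by *ATP6V1A* (gene 100347673), binds and breaks down ATP in the V1 head. *ATP6V1A* stood at 217, 189, 189.9, 84.9 and 272 CPM in Perthes rabbits 1 to 5 and at 84.6, 82.7 and 90.2 CPM in control rabbits 1 to 3. The controls lay close together, 4 of 5 Perthes rabbits were above them, and Perthes 4 lay inside their range. In Perthes it averaged 191 CPM with an SD of 68.1 (n = 5) and in controls 85.8 CPM with an SD of 3.90 (n = 3). Its log2 fold change was 1.15 (SE 0.33, adjusted p = 0.0459). Without Perthes 4 the adjusted p from edgeR was 0.00766. Without any other single rabbit it lay between 0.0593 and 0.146, so the call ended. With library totals alone it was 0.0678, and the call ended there too.

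*ATP6V1B2* (gene 100341367) encodes the B2 isoform of the subunit that alternates with A in the V1 head and is the B isoform of osteoclasts. The values in Perthes rabbits 1 to 5 were 261, 271, 324, 151 and 359 CPM, and those in control rabbits 1 to 3 were 174, 134 and 133 CPM. Perthes 4 fell below control 1, and the other 4 Perthes rabbits stood above all controls. The log2 fold change was 0.89 (SE 0.28), and with an adjusted p of 0.0605 from edgeR it did not pass the threshold. Without Perthes 4 the adjusted p from edgeR was 0.0148, and over the 14 alternatives it ran from 0.0148 to 0.195.

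The C subunit is a stalk that leaves when V1 and V0 come apart, and *ATP6V1C1* (gene 100343886) encodes its widespread isoform. In Perthes rabbits 1 to 5 it was at 90.8, 49.5, 56.7, 36.6 and 75.7 CPM, and in control rabbits 1 to 3 at 24.8, 30.4 and 33.9 CPM. All Perthes rabbits were above all controls, with Perthes 4 next to control 3. In Perthes it averaged 61.9 CPM with an SD of 21.5 (n = 5) and in controls 29.7 CPM with an SD of 4.59 (n = 3), and the gene rose by 1.06 on the log2 scale (SE 0.29, adjusted p = 0.0426). The call ended without Perthes 1, 3 or 5 or without any 1 of the 3 controls, with adjusted p from edgeR between 0.0582 and 0.147. It also ended with library totals alone (adjusted p = 0.0763 from edgeR).

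*ATP6V1H* (gene 100353410) encodes the H subunit, which couples V1 to V0 and stops ATP breakdown by V1 that is free of V0. Its values were 166, 86.0, 117, 41.6 and 149.5 CPM in Perthes rabbits 1 to 5 and 27.2, 34.5 and 36.9 CPM in control rabbits 1 to 3. No Perthes rabbit reached down to the controls, and Perthes 4 was nearest to them. In Perthes it averaged 112 CPM with an SD of 49.8 (n = 5) and in controls 32.9 CPM with an SD of 5.05 (n = 3). The log2 fold change was 1.77 (3.40-fold, SE 0.42, adjusted p = 0.0247), the furthest from 0 of the 5 members called. Without Perthes 3 or 5 or any 1 of the 3 controls the adjusted p from edgeR lay between 0.0524 and 0.103, and the call ended.

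The accessory protein Ac45, encoded by *ATP6AP1* (gene 100328760), sits in V0 and is needed for its assembly and for its delivery to the ruffled border. Levels of 245, 187, 255, 146 and 308 CPM were found in Perthes rabbits 1 to 5, and of 100.4, 101 and 108 CPM in control rabbits 1 to 3. The controls lay within a few CPM of each other, and all 5 Perthes rabbits stood above them. In Perthes it averaged 228 CPM with an SD of 62.8 (n = 5) and in controls 103 CPM with an SD of 4.39 (n = 3). The log2 fold change of 1.14 (SE 0.25) had the lowest adjusted p of the members by edgeR (0.0206). The adjusted p from edgeR was 0.0519 without Perthes 3, 0.0786 without control 1 and 0.0838 without control 2, and the call held without each other rabbit.

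*ATP6AP2* (gene 100344856), also known as the prorenin receptor, encodes the other accessory protein, which binds V0 during assembly. It had 267, 191, 220.0, 101 and 267 CPM in Perthes rabbits 1 to 5 and 85.1, 96.6 and 97.8 CPM in control rabbits 1 to 3. The groups did not overlap, and Perthes 4 was close to controls 2 and 3. In Perthes it averaged 209 CPM with an SD of 68.5 (n = 5) and in controls 93.2 CPM with an SD of 7.00 (n = 3), and the gene rose by 1.17 on the log2 scale (SE 0.31, adjusted p = 0.0351). The call ended without Perthes 1, 3 or 5 or any 1 of the 3 controls, with adjusted p from edgeR between 0.0589 and 0.124. Library totals alone ended it as well (adjusted p = 0.0567 from edgeR).

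Summed over the 9 members, the level was 2065, 1290, 1656, 770.2 and 1841 CPM in Perthes rabbits 1 to 5 and 758, 696 and 725 CPM in control rabbits 1 to 3. The Perthes sums all stood above the control sums, with Perthes 4 just above control 1. Perthes 4 was the lowest Perthes rabbit for all 9 members. The highest was Perthes 5 for *ATP6V0D1*, *ATP6V1A*, *ATP6V1B2*, *ATP6AP1* and *ATP6AP2* and Perthes 1 for *ATP6V0D2*, *ATP6V0A1*, *ATP6V1C1* and *ATP6V1H*.

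The d1 isoform served as a reference inside each rabbit for the other 8 members, a comparison chosen after the values had been seen and therefore given with no test. The log2 ratio to *ATP6V0D1* stood higher in every Perthes rabbit than in every control for 7 of 8 members, all but *ATP6V0A1*, against 6.82% of the 15304 other genes tested. For *ATP6V1H* the ratio was 0.82, -0.29, 0.08, -0.84 and 0.22 in Perthes rabbits 1 to 5 and -2.10, -1.40 and -1.15 in control rabbits 1 to 3, a difference of means of 1.55. For *ATP6V1B2* it was 1.48, 1.36, 1.55, 1.02 and 1.48 against 0.58, 0.55 and 0.70, a difference of 0.77. On this scale Perthes 4 stood above the controls for *ATP6V1A* and *ATP6V1B2*, which it had not on the CPM scale. The reference *ATP6V0D1* was itself lowest in Perthes 4 of all 8 rabbits (74.6 CPM), which raises every ratio of that rabbit. For *ATP6V1A* the gap between the groups was 0.05. The difference was 0.98 for *ATP6V1A*, 0.92 for *ATP6V1C1*, 1.02 for *ATP6AP1* and 1.01 for *ATP6AP2*, and 0.17 for *ATP6V0A1*, whose groups overlapped.

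**Figure D2:**
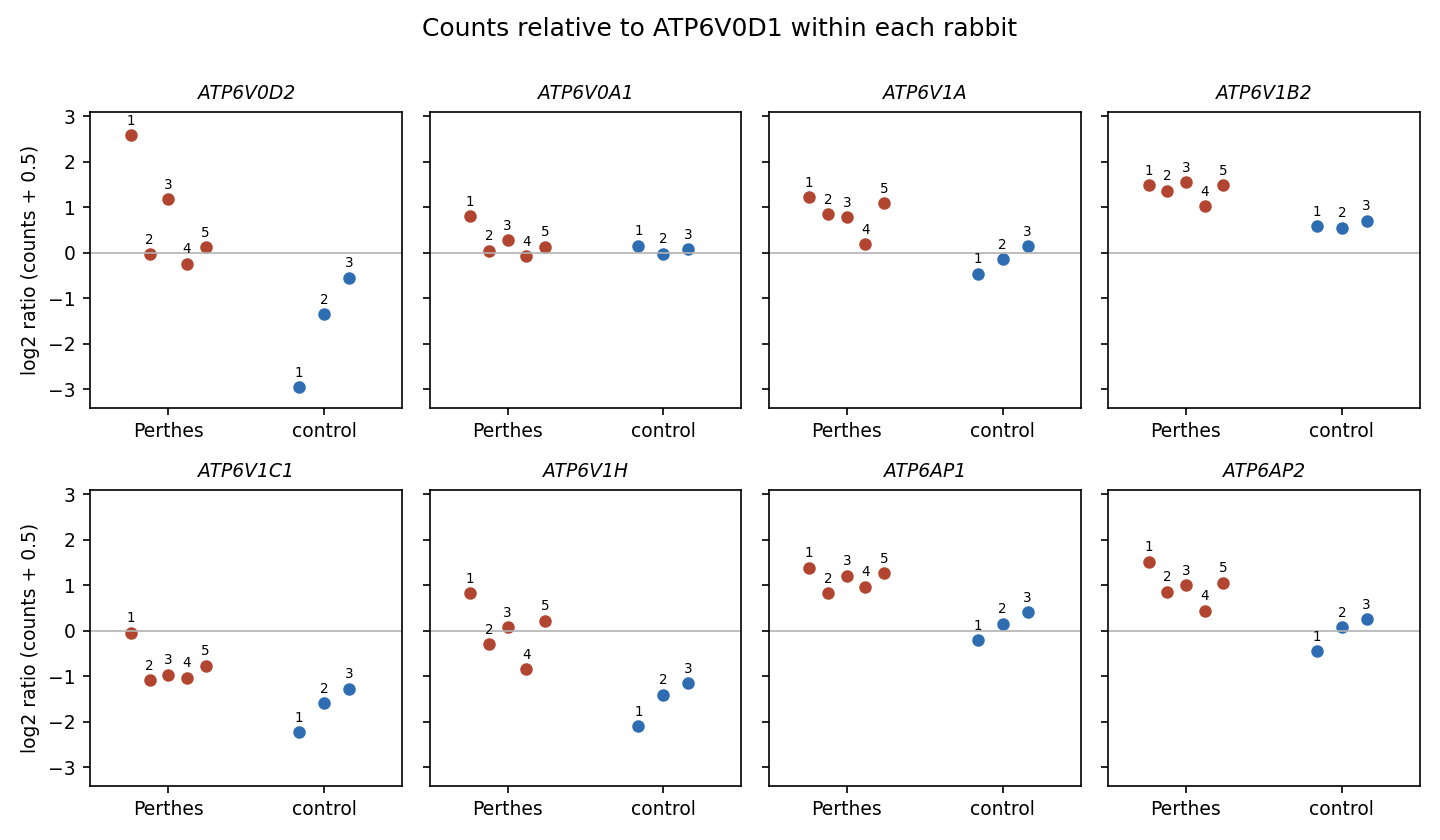
Log2 ratio of the count of each of 8 members to the count of ATP6V0D1 in the same rabbit (pseudocount 0.5), for Perthes (n = 5) and control (n = 3) rabbits. The groups are apart for every member shown except ATP6V0A1, with the difference of means furthest from 0 for ATP6V0D2 (2.34).

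The remaining subunits of the pump were taken from a list of 17 genes, of which 16 were analysed and 13 had enough counts to be tested. *ATP6V1B1*, the B isoform of acid-secreting kidney cells, was not analysed here. *ATP6V1C2*, *ATP6V1E2* and *ATP6V1G3*, isoforms of narrow tissue range, were at no more than 0.179, 0.524 and 0.0367 CPM in any rabbit and were not tested. By edgeR 3 of 13 were called higher (0 with library totals alone) and 0 of 13 lower, with 8 higher and 0 lower at an unadjusted p under 0.05, and 6 higher and 0 lower by DESeq2. Of all genes, edgeR called 6.21% higher and 8.86% lower, and 15.3% were higher and 16.6% lower at an unadjusted p under 0.05. DESeq2 called 9.74% higher and 11% lower. These shares also stand beside the counts of the partner and marker lists below. The median log2 fold change of the 13 other subunits was 0.57, and 10 of 13 were above 0. In 4 of 13 all Perthes rabbits were above all controls, against 11.2% of all genes. The sum of the 16 genes was 1001, 778, 934, 578 and 1047 CPM in Perthes rabbits 1 to 5 and 526, 516 and 563 CPM in control rabbits 1 to 3, so the groups did not overlap.

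*ATP6V1E1*, the E subunit of the outer stalk, was at 95.6, 72.7, 74.5, 61.7 and 99.4 CPM in Perthes rabbits 1 to 5 and at 40.8, 42.6 and 54.8 CPM in control rabbits 1 to 3. The groups did not overlap, and the gene rose by 0.81 on the log2 scale (SE 0.21, adjusted p = 0.0314). *ATP6V0E1*, the small e subunit of V0, was at 153, 101, 120.2, 89.7 and 146 CPM against 66.2, 63.5 and 73.0 CPM. All Perthes rabbits were above all controls, and it rose by 0.85 (SE 0.21, adjusted p = 0.0293). *ATP6V0E2*, the other e isoform, was at 12.2, 9.77, 11.3, 10.7 and 11.6 CPM against 4.61, 7.48 and 7.82 CPM. Here Perthes 2 was the lowest Perthes rabbit, the groups did not overlap, and the log2 fold change was 0.75 (SE 0.21, adjusted p = 0.0458). By edgeR, 0 of these 13 genes were called without Perthes 3, Perthes 5, control 1 or control 2. The count was 1 without control 3 and 5 without Perthes 4. *ATP6V0E2* was not among those 5 (adjusted p = 0.0551 from edgeR). Its call also ended without Perthes 1 (0.0699) and with no low-count filter (0.0565). For the 3 genes called, the log2 fold changes stayed between 0.54 and 0.95.

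*ATP6V0C* encodes the c subunit, whose copies form the proton-carrying ring, and it was at 294, 228, 324, 132 and 316 CPM in Perthes rabbits 1 to 5 and at 138, 125 and 131 CPM in control rabbits 1 to 3. Perthes 4 lay inside the control range and the other 4 Perthes rabbits above it. Its log2 fold change of 0.98 (SE 0.29) had an adjusted p of 0.0523 from edgeR and did not pass. *ATP6V1F*, a rotor subunit, was at 61.4, 38.9, 51.7, 32.1 and 78.3 CPM against 29.05, 28.6 and 29.1 CPM. The groups did not overlap, and the log2 fold change of 0.86 (SE 0.28) had an adjusted p of 0.0683 from edgeR. Of the other subunits tested, *ATP6V1D* (0.69, adjusted p = 0.0751), *ATP6V0B* (0.57, adjusted p = 0.128) and *ATP6V1G1* (0.55, adjusted p = 0.147) had log2 fold changes above 0 that did not pass in edgeR. *ATP6V0A2*, an a isoform of the Golgi and endosomes, ranged from 41.7 to 51.1 CPM in Perthes and from 44.4 to 54.0 CPM in controls, with a log2 fold change of -0.11 (SE 0.14, adjusted p = 0.621). *ATP6V0A4*, the a isoform of kidney, was at 0.101 to 1.76 CPM in Perthes and 0.732 to 0.965 CPM in controls, with 3 to 48 counts a library, and the groups overlapped (log2 fold change -0.26, SE 0.81, adjusted p = 0.849). The other 3 genes tested, *ATP6V1G2* (-0.45), *ATP6AP1L* (0.54) and *RNASEK* (0.25), had adjusted p from edgeR of 0.502, 0.392 and 0.552.

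**Figure D3:**
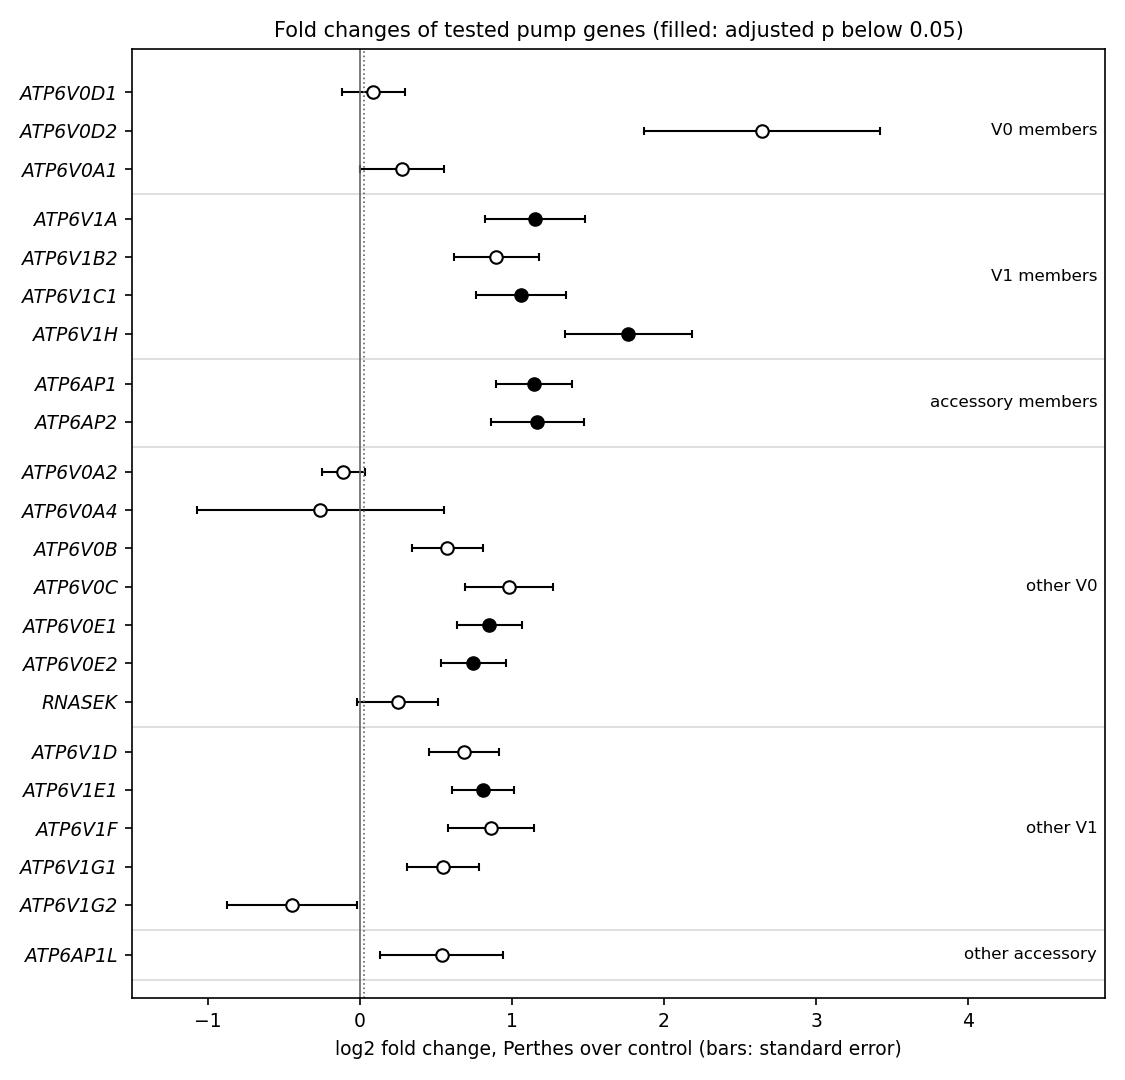
Log2 fold change (Perthes over control, n = 5 and 3) of the 22 pump genes tested, ordered by role, with bars of 1 SE, and filled points for an adjusted p under 0.05 in edgeR. The dotted line is the median of all genes tested (0.02), and 5 members and 3 other subunits have filled points, all above 0.

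Assembly factors help to build V0 or govern the joining of V1 to V0, and 12 of 13 listed genes were analysed, with *TMEM9* not analysed here. Of the 11 tested, edgeR called 0 higher and 0 lower, and DESeq2 called 2 higher and 0 lower. At an unadjusted p under 0.05 in edgeR, 2 were higher and 1 lower, near the shares of all genes (15.3% and 16.6%). Without Perthes 4, edgeR called 2 higher, and 0 without each other rabbit. The median log2 fold change was 0.14, and *TLDC2* was read in Perthes 1 alone, at 0.0338 CPM. *OXR1*, whose relative in yeast takes the assembled pump apart, was at 213, 96.6, 119.6, 58.1 and 130.1 CPM in Perthes rabbits 1 to 5 and at 44.6, 58.7 and 61.6 CPM in control rabbits 1 to 3. Perthes 4 lay inside the control range, and the log2 fold change was 1.17 (SE 0.37, adjusted p = 0.0643). *NCOA7*, a relative of *OXR1*, was at 23.0, 24.3, 22.0, 13.6 and 18.1 CPM against 30.2, 29.6 and 25.5 CPM. All Perthes rabbits were below all controls, and the log2 fold change was -0.49 (SE 0.20, adjusted p = 0.130). *TMEM199*, a chaperone of V0 assembly, had a log2 fold change of 0.54 (SE 0.18, adjusted p = 0.0697), with Perthes 4 just below control 1.

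Acid secretion by osteoclasts also needs carriers of chloride, bicarbonate and protons and proteins that move vesicles to the ruffled border, and all 12 listed genes of this kind were analysed. Of the 11 tested, edgeR called 2 higher (1 with library totals alone) and 3 lower, and the median log2 fold change was 0.60. *OSTM1*, the partner of the lysosomal chloride exchanger, was at 49.5, 40.2, 46.9, 15.1 and 61.1 CPM in Perthes rabbits 1 to 5 and at 16.9, 14.5 and 10.6 CPM in control rabbits 1 to 3. Perthes 4 lay inside the control range and the other 4 above it, and the log2 fold change was 1.61 (SE 0.41, adjusted p = 0.0308). *PLEKHM1*, which acts in the fusion of vesicles with lysosomes, was at 272, 195, 332, 87.4 and 289 CPM against 88.7, 91.0 and 81.0 CPM. Again Perthes 4 alone overlapped the controls, and the log2 fold change was 1.44 (SE 0.39, adjusted p = 0.0385). *CLCN7*, the exchanger to which *OSTM1* protein binds, had at most 0.147 CPM in any rabbit and was not tested.

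Genes of the same list that were called lower included *CA2*, carbonic anhydrase, which makes protons for the pump and is also abundant in red blood cells. It was at 123, 375, 158, 73.5 and 93.5 CPM in Perthes rabbits 1 to 5 and at 647, 493 and 474 CPM in control rabbits 1 to 3. All Perthes rabbits were below all controls, with Perthes 2 nearest, and the log2 fold change was -1.71 (SE 0.48, adjusted p = 0.0441). *RAB3D*, a small GTPase of secretory vesicles, was at 1.93, 8.24, 4.81, 6.77 and 2.55 CPM against 51.3, 20.0 and 14.8 CPM. Control 1 was far above the other controls, the groups did not overlap, and the log2 fold change was -2.56 (SE 0.54, adjusted p = 0.0177), or -1.84 without control 1 (adjusted p = 0.0821 from edgeR). *CLCN3*, an endosomal chloride exchanger, was at 50.4, 45.1, 35.5, 38.5 and 37.3 CPM against 50.9, 101.5 and 68.7 CPM. Perthes 1 and control 1 nearly met, and the log2 fold change was -0.83 (SE 0.23, adjusted p = 0.0394), or -0.53 without control 2 (adjusted p = 0.174 from edgeR). By edgeR, 0 of the 11 genes were called in either direction without control 1 or control 2, and 9 were at an unadjusted p under 0.05 with all rabbits kept (6 higher and 3 lower) against 4 higher and 3 lower called by DESeq2. Without Perthes 1, 1 was called higher and 2 lower, without Perthes 3, Perthes 5 or control 3, 0 higher and 1 lower, and without Perthes 4, 4 higher and 1 lower.

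Ragulator and the Rag GTPases hold the growth kinase mTORC1 on the lysosome and bind the pump, and all 13 listed genes were tested. By edgeR 2 were called higher and 0 lower, with 5 higher and 0 lower at an unadjusted p under 0.05, and 3 higher and 0 lower by DESeq2. *RRAGD*, a Rag GTPase, was at 21.6, 22.1, 17.4, 9.75 and 25.1 CPM in Perthes rabbits 1 to 5 and at 6.61, 8.11 and 8.68 CPM in control rabbits 1 to 3. The groups did not overlap, and the gene rose by 1.30 on the log2 scale (SE 0.30, adjusted p = 0.0235). *RRAGA*, the partner with which it can pair, was at 51.3, 41.3, 46.7, 41.2 and 51.9 CPM against 29.9, 27.7 and 29.8 CPM. Here Perthes 2 and Perthes 4 were level and above all controls, and it rose by 0.67 (SE 0.15, adjusted p = 0.0192). Over the 13 genes the median log2 fold change was 0.35, and 0 were called by edgeR without Perthes 5, control 1 or control 2 and 1 without Perthes 3.

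The MiT/TFE transcription factors switch on lysosomal genes, pump subunits among them, and edgeR called 1 of 4 higher and 0 of 4 lower, with the same counts at an unadjusted p under 0.05 and by DESeq2. *MITF*, which has a known role in osteoclasts, was at 91.9, 33.8, 51.7, 17.7 and 79.2 CPM in Perthes rabbits 1 to 5 and at 7.68, 14.2 and 17.9 CPM in control rabbits 1 to 3. Perthes 4 was just below control 3 and the other 4 Perthes rabbits were above all controls. Its log2 fold change was 2.05 (SE 0.54, adjusted p = 0.0363), and the call ended without Perthes 1, 3 or 5 or any 1 of the 3 controls, with adjusted p from edgeR between 0.0556 and 0.134. *TFE3* (0.37), *TFEC* (0.15) and *TFEB* (-0.05) had adjusted p from edgeR of 0.221, 0.848 and 0.895.

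Across the 8 libraries the log2 CPM values of the 9 members were compared pair by pair as a description, since the libraries fall into the Perthes and control groups. Over the 36 pairs Pearson's r ran from 0.0727 to 0.996 with a median of 0.828, and with each group's mean removed from -0.0711 to 0.990 with a median of 0.801. The lowest of the 36 in both forms was the pair of d isoforms. Among the 4 V1 members the 6 pairs lay between 0.809 and 0.982, and between 0.533 and 0.954 with group means removed. Pairs with *ATP6V0D1* had a median r of 0.476 (0.640 with group means removed) and pairs with *ATP6V0D2* one of 0.825 (0.557). The mean of the 9 members, each scaled to mean 0 and SD 1, was 0.995, 0.332, 0.767, -0.815 and 1.13 in Perthes rabbits 1 to 5 and -0.704, -0.871 and -0.832 in control rabbits 1 to 3. On this scale Perthes 4 lay inside the range of the controls and the other 4 Perthes rabbits above it.

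Likeness to the members was measured by Pearson's r of log2 CPM over the 8 libraries among 12301 genes and is given as description. The 5 genes most like *ATP6V0D2* were *MTMR9* (r = 0.988), *C1GALT1C1* (0.985), *RAB22A* (0.980), *EPS8* (0.979) and *FUBP3* (0.979). With group means removed their r lay between 0.951 and 0.979. The 5 most like the mean of the members were *CD200R1* (r = 0.995), *ABHD12* (0.994), *ACP2* (0.993), *ADAP2* (0.993) and *GUSB* (0.993), and with group means removed they lay between 0.984 and 0.991. An r above 0.9 was reached by 422 genes with *ATP6V0D2* and by 476 with the mean, so the genes named are the top of a long series.

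Markers of cell types that carry the pump were summed in each rabbit to set them beside the members. Of 15 macrophage genes, 13 were analysed and tested, 6 were called higher and 2 lower (*LYZ* and *C1QC*) by edgeR, 7 higher and 3 lower (these and *MARCO*) both at an unadjusted p under 0.05 and by DESeq2, and the median log2 fold change was 1.28. Their sum was 7669, 5431, 5859, 1055 and 6265 CPM in Perthes rabbits 1 to 5 and 1777, 925 and 1120 CPM in control rabbits 1 to 3. *GPNMB* had the highest CPM of the list in each Perthes rabbit, with 5491, 4187, 3992, 314 and 4236 CPM of these sums, and *LYZ* in each control, with 1077, 330.3 and 573 CPM. Perthes 4 lay inside the control range of this sum. Its place turned on these genes, in sums chosen after the values were seen. Without *LYZ* it stood at 819.9 CPM, above the controls (700.1, 594 and 547 CPM), without *GPNMB* at 741 CPM, below them (1758, 909 and 1097 CPM), and without both at 506 CPM, also below them (681, 578 and 524 CPM). Of 12 osteoclast genes, all 12 were tested, and 3 (*CTSK*, *DCSTAMP* and *SIGLEC15*) were called higher and 0 lower, with 6 higher and 0 lower both at an unadjusted p under 0.05 and by DESeq2. Their sum was 3918, 5467, 5267, 3467 and 6736 CPM against 2057, 3223 and 2921 CPM, and the groups did not overlap. Of these sums *CTSK* made up 2546, 2350, 2280, 991 and 3773 CPM against 404, 783 and 831 CPM. The separation rested on *CTSK*, a gene singled out after the values were seen. Without it the sum of Perthes 1 stood below all 3 controls, and the other Perthes rabbits stayed above them. The gene with the highest CPM was *CTSK* in Perthes 1, 2, 3 and 5 and *MMP9* in Perthes 4 and the 3 controls. The median log2 fold change of the osteoclast list was 0.84, and 11 of 12 genes were above 0. The exception was *ITGB3* (-0.54, adjusted p = 0.318 from edgeR), and *ACP5* (0.36), *MMP9* (0.34) and *NFATC1* (0.44) were among the genes not called. Perthes 1, the highest rabbit for *ATP6V0D2*, was the lowest Perthes rabbit for *ACP5*, *MMP9*, *CALCR*, *NFATC1*, *ITGB3* and *OSCAR*. Perthes 4 was the lowest for the other 6. Each of the 10 marker lists had 0 genes at 0 in all 8 libraries. The log2 of the macrophage sum followed the mean of the pump members with r = 0.969 over the 8 libraries (0.935 with group means removed), and the osteoclast sum with r = 0.794 (0.505). The osteoclast r includes *CTSK*, on which the separation of that sum rested, and no r without *CTSK* is given here. Without *LYZ* the r of the macrophage sum was 0.974 (0.950), without *GPNMB* 0.788 (0.902) and without both 0.989 (0.988). Their part in the pump results was not tested. The counts called higher moved with single rabbits: for macrophage genes they numbered 0 without control 2, 1 without control 1, 3 without Perthes 1, Perthes 3, Perthes 5 or control 3, and 7 without Perthes 4, and those called lower 0 without control 1 or control 2 and 1 without Perthes 1, Perthes 4, Perthes 5 or control 3. Osteoclast genes called higher numbered 0 without Perthes 3, Perthes 5, control 1 or control 2, 1 without control 3, 2 without Perthes 1 or Perthes 2, and 5 without Perthes 4.

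**Figure D4:**
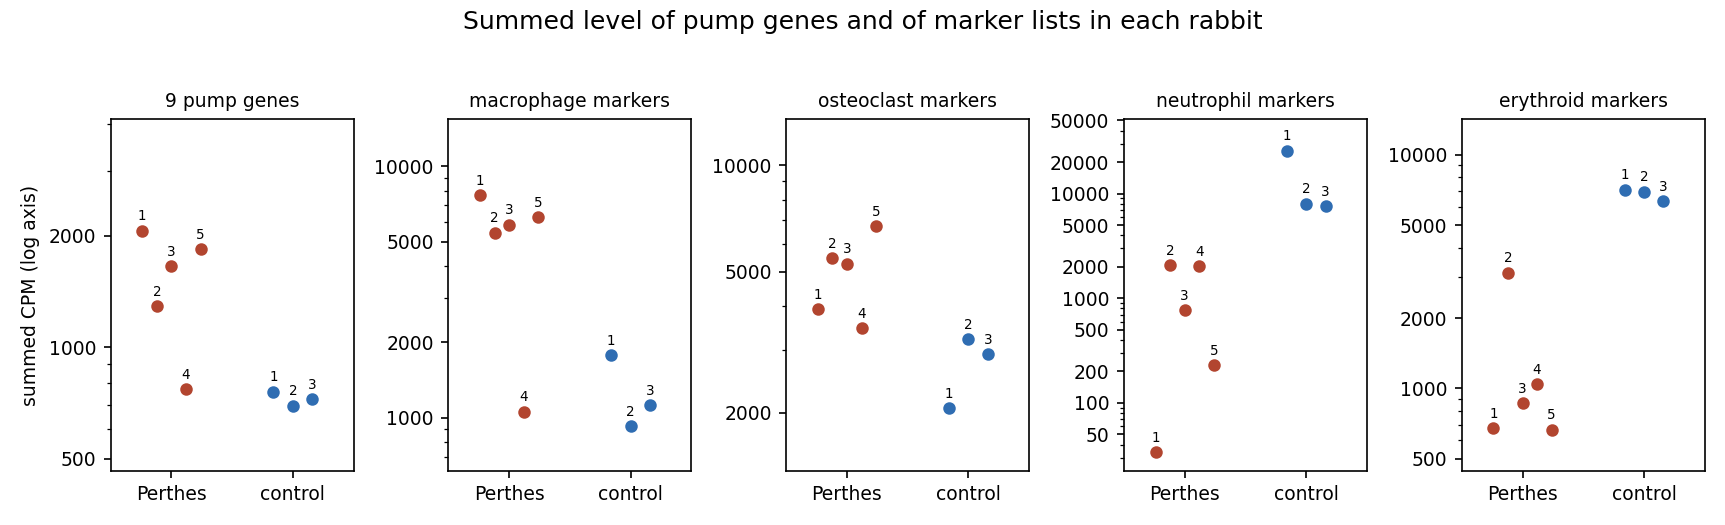
Summed level (CPM, log axis) in each Perthes (n = 5) and control (n = 3) rabbit of the 9 pump members and of the macrophage, osteoclast, neutrophil and erythroid marker lists. Perthes sums lie above the control sums for the pump and osteoclast lists and below them for the neutrophil and erythroid lists, and overlap them for macrophages. Without CTSK (not drawn) the osteoclast sum of Perthes 1 would lie below all 3 controls.

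Neutrophil and erythroid markers were summed in the same way. Of 12 neutrophil genes 11 were tested, 0 were called higher and 6 lower by edgeR (10 lower with library totals alone), 0 higher and 11 lower both at an unadjusted p under 0.05 and by DESeq2, and the median log2 fold change was -3.69. Their sum was 33.8, 2078, 767, 2022 and 229 CPM in Perthes rabbits 1 to 5 and 25602, 8045 and 7626 CPM in control rabbits 1 to 3. The gene with the highest CPM was *LTF* in Perthes 3 and control 1, *S100A9* in Perthes 5 and *LCN2* in the other rabbits. Of 10 erythroid genes 10 were tested, 0 were called higher and 2 lower by edgeR, 0 higher and 10 lower at an unadjusted p under 0.05, 0 higher and 6 lower by DESeq2, and the median was -3.04. Their sum was 676, 3133, 867, 1045 and 667 CPM against 7088, 6949 and 6330 CPM. The transferrin receptor gene *TFRC* had the highest CPM in Perthes 1, 3, 4 and 5, *SLC4A1* in Perthes 2 and control 1, and *ALAS2* in controls 2 and 3. *TFRC* alone was at 641, 582, 427, 551 and 579 CPM against 853, 853 and 946 CPM, with a log2 fold change of -0.67. Without it, a choice made after the values were seen, the sum of the other 9 genes was 35.6, 2550.4, 440.2, 494 and 87.9 CPM against 6235, 6096 and 5384 CPM. Both full sums and the erythroid sum without *TFRC* were lower in every Perthes rabbit than in every control, and r with the mean of the pump members was -0.850 for neutrophil genes (-0.648 with group means removed), -0.773 for erythroid genes (-0.360) and -0.800 for erythroid genes without *TFRC* (-0.524). Their part in the pump results was not tested. Neutrophil genes called lower numbered 0 without Perthes 3, Perthes 5, control 1 or control 2, 2 without control 3 and 10 without Perthes 1. Erythroid genes called lower numbered 9 without Perthes 2, 1 without Perthes 1 and 0 without each other rabbit.

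The chondrocyte list (10 of 11 genes analysed, 9 tested) had a median log2 fold change of 1.01, 0 genes called by edgeR or DESeq2 and 2 higher at an unadjusted p under 0.05. Its sum was 36646, 43007, 80573, 149424 and 62974 CPM in Perthes rabbits 1 to 5 and 49569, 47234 and 68083 CPM in control rabbits 1 to 3. Perthes 4, the lowest Perthes rabbit for all 9 pump members, had the highest chondrocyte sum, and r with the mean of the members was -0.298 (-0.706 with group means removed). Its part in the low pump values of Perthes 4 was not tested. The adipocyte sum was 994, 1480.1, 884, 129.9 and 1467 CPM in Perthes rabbits 1 to 5 and 491, 1475 and 582 CPM in control rabbits 1 to 3, with *LPL* the gene with the highest CPM in each. Perthes 4 was below every other rabbit, the groups overlapped, and r with the mean of the members was 0.530 (0.788 with group means removed). For the osteoblast and osteocyte, endothelial, skeletal muscle and B lymphocyte lists r lay between -0.256 and 0.303 (-0.347 and 0.290). Their part in the pump results was not tested. Calls by edgeR numbered 0 of 11 osteoblast and osteocyte genes (median log2 fold change 0.06), 0 of 9 endothelial genes (median -0.30) and 0 of 3 skeletal muscle genes (median -0.73). They numbered 0 of 6 adipocyte genes (median -0.85) and 1 of 7 B lymphocyte genes (median -0.86). The B lymphocyte gene called was *MS4A1*, which was lower, with a log2 fold change of -2.03 (adjusted p = 0.04999 from edgeR). At an unadjusted p under 0.05 these lists had 2, 1, 0, 0 and 1 genes higher and 0, 1, 1, 0 and 3 lower in that order, and DESeq2 called 1, 1, 0, 0 and 1 higher and 0, 0, 0, 0 and 2 lower. By edgeR, B lymphocyte genes called lower numbered 3 without Perthes 2, 1 without Perthes 4 and 0 without each other rabbit or with no low-count filter, and 1 was called higher without Perthes 4. Adipocyte genes called lower numbered 2 without Perthes 2, osteoblast and osteocyte genes called higher 2 without control 3, and endothelial genes called higher 1 without Perthes 4 or Perthes 5, and 1 endothelial gene was called lower with library totals alone.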

How the data were processed

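Per the labels, the authors filtered reads with SOAPnuke, aligned them with HISAT2 2.0.4 and counted them with RSEM 1.1.17 and HTSeq 1.99.2, with no strand setting given. The deposited table holds expected counts of 20255 genes (16842 mRNAs and 3413 long non-coding RNAs), which were rounded to whole counts. Another 8 per-sample columns repeat the ones used and were left out, and the 8 small RNA libraries were not used here. The members and lists were chosen with earlier results of these data known.

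Counts were scaled by TMM, genes of low counts were removed with filterByExpr (4950 genes), and the groups were compared by the quasi-likelihood F-test of edgeR 4.0.16 in R 4.3.3, with p adjusted by Benjamini-Hochberg over 15305 genes. The SE is the log2 fold change, without its sign, divided by the square root of F. CPM used TMM-scaled library sizes, and log2 CPM a prior count of 2. The isoform ratio used a pseudocount of 0.5 and an exact two-sided permutation test over 56 divisions (scipy 1.17.1); it was 1 of 2 planned, and the ratio with *TCIRG1* was not run. Named genes were all members, then list genes, those called first, and for likeness the 5 genes outside the members with the highest r; which uncalled list genes to name was chosen after their values were seen. Within groups, r of log2 CPM between libraries was 0.921 to 0.970 over 10 Perthes pairs and 0.944 to 0.974 over 3 control pairs. The steps were tested on simulated data. Alternatives were DESeq2 1.42.0, other scalings and filters, other thresholds, a replicate block and leaving out each rabbit.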

Additional observations from a re-analysis of the deposited data

Results flagged for a closer look

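In each group of 5 Perthes rabbits the gap of the highest or lowest rabbit to its neighbour was set against the whole range, for 78 genes and list sums. Chance alone marks about 1 in 20 such groups, and 6 of 78 were marked here; the 3 controls were too few for this comparison.

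*VMA21*, an assembly factor, stood at 7.63 CPM in Perthes 1, with the next rabbit at 4.59 CPM. *DMXL1*, another assembly factor, was at 132 CPM in Perthes 4, with the next at 209.9 CPM. *CA2* was at 375 CPM in Perthes 2, with the next at 158 CPM. The summed acid secretion partners were at 686 CPM in Perthes 4, with the next at 1089 CPM. The erythroid sum was 3133 CPM in Perthes 2, with the next at 1045 CPM. The skeletal muscle sum was 4.49 CPM in Perthes 5, with the next at 1.84 CPM.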

How the results depend on the processing

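Of the 9 members, 8 kept the sign of their log2 fold change in all 14 alternatives. *ATP6V0D1* reversed without Perthes 5 (-0.00539) and without control 3 (-0.0187), and over the leave-outs it ran from -0.0187 to 0.25. Members called higher numbered 5, and 2 with library totals alone, 0 by DESeq2 at the study's thresholds (beyond 2 on the log2 scale, at an adjusted p under 1e-05) and 0 to 7 over the leave-outs; 0 were called lower in any of these, by edgeR or DESeq2, where 7 of 9 were at an unadjusted p under 0.05 in edgeR, all of them higher. Other subunits called higher numbered 3, and 0 with library totals alone, 6 by DESeq2, 0 by DESeq2 at the study's thresholds, 0 with a log2 fold change beyond 1 in edgeR and 0 to 5 over the leave-outs. The cause was not tested, beyond the fewer rabbits of a leave-out and the stricter thresholds.

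With the replicate number as a block, edgeR called 0 of 15305 genes, 0 members and 0 other subunits. In that fit 7 of 9 members had an unadjusted p under 0.05, and the share of all genes at that p is not given here. The adjusted p from edgeR of the members ran from 0.115 to 0.843, and the block leaves fewer degrees of freedom. Equal numbers were not taken to pair rabbits: with group means removed, r between libraries was -0.317, 0.161 and -0.238 for the pairs of equal number.

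The *ATP6V0D2* to *ATP6V0D1* ratio differed by 2.34 with a pseudocount of 1 (exact permutation p = 0.0357), by 1.47 with group medians (exact permutation p = 0.107), by 2.86 over the pairs of the replicate block and by 1.67 to 2.87 over the leave-outs. The alternatives of the *TCIRG1* ratio were not run. The same alternatives for partner and marker lists were chosen after seeing the data. With 5 and 3 rabbits, single rabbits decide most calls at the threshold. *ATP6V1C2*, *ATP6V1E2*, *ATP6V1G3*, *CLCN7* and *TLDC2* had too few counts to be compared, and the cause of their low counts was not tested.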
